A study of Polypedilum vanderplanki with 72 samples.

Results

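The V3 line was set against the V2 line within each of 3 treatments. Both are clonal lines of Pv11, a cultured cell line of the sleeping chironomid Polypedilum vanderplanki, in which HSF1 was knocked out and a single HSF1 isoform, V3 or V2, was overexpressed. The comparison used 18 of the 72 libraries of the series, taken by their labels as 3 V3 and 3 V2 libraries in each treatment. In T48 the cells had spent 48 h in 600 mM trehalose. In R24 they had been dried for 11 days after that trehalose step and then rehydrated for 24 h. In HS6h they had been heat shocked for 6 h, and the labels do not say whether trehalose was present. The other groups used as a background were the lines carrying V1, V4, V5-6 or the Drosophila forms HSF1a and HSF1b in the same knockout cells, the HSF1 knockout itself (KO) and unmodified cells (WT). KO and both Drosophila forms were not analysed here at R24, and there was no group of untreated cells. Each isoform was represented by a single line, so the isoform and the clone cannot be told apart. The labels name no promoter and give no level for either HSF1 transgene.

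HSF1 is the transcription factor that eukaryotic cells use to switch on chaperone genes when proteins unfold. It is inactive in unstressed cells and on heat forms trimers that bind heat shock elements in promoters. Its transcripts can be spliced in several ways, and P. vanderplanki makes several HSF1 isoforms. The larvae of this midge survive almost complete drying with the help of trehalose, and Pv11 cells survive drying after a period in trehalose. The study asked whether HSF1 isoforms differ in what they do for desiccation tolerance, and V3 against V2 compares 2 of them on a shared knockout background.

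The libraries held between 3043634 and 8808470 gene counts, with V3 at 3043634 to 4980728 and V2 at 3820088 to 4447534 at T48, V3 at 7511771 to 8808470 and V2 at 6556071 to 8590791 at R24, and V3 at 5420178 to 6225754 and V2 at 4374618 to 5367342 at HS6h. The spread between libraries of a group, given as the variance over that of counting error alone, had a median of 2.55 at T48, 8.44 at R24 and 2.88 at HS6h over 6 pairs of libraries each. At R24, V2 replicate 2 stood apart from V2 replicates 1 and 3, with values of 15.3 and 11.1, while replicates 1 and 3 gave 3.20 with each other. V3 replicates 1 and 3 at R24 gave 11.3.

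V3 and V2 cells differed most often in trehalose and least often after rehydration. At T48, 2890 of 8258 genes tested differed at an adjusted p under 0.05, which is 35.0% of them, with 1430 higher and 1460 lower in V3. At R24, 652 of 8929 genes differed (7.3%), with 315 higher and 337 lower. At HS6h, 2198 of 8261 genes differed (26.6%), with 1134 higher and 1064 lower. Most differences were small. The median absolute log2 difference over all genes tested was 0.34 at T48, 0.18 at R24 and 0.29 at HS6h, and 500, 140 and 394 genes passed both the test and a 2-fold change at T48, R24 and HS6h (6.05%, 1.57% and 4.77% of genes tested). Among these, more genes were higher than lower in V3 at T48 (311 and 189) and at HS6h (260 and 134), and fewer at R24 (55 and 85). More of the abundant genes passed the test: at T48 the share called was 10.4% below 5 CPM and 76.0% at 500 CPM or more, and at R24 it was 3.36% and 13.7% in the same classes. CPM here are counts scaled to a common library size with TMM.

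The count was also set beside those of the other isoform lines. Among the 10 pairs of the 5 Pv isoform lines, V3 against V2 gave the fewest calls at R24, where the other 9 pairs gave 1209 to 4265. At T48 it stood seventh from the lowest, in a range of 1657 (V3 against V5-6) to 3672 (V2 against V1) for the others, and at HS6h it was the fifth, in a range of 1795 to 3540. These pairs share libraries and were not tested against each other. The count at R24 depended on the libraries used: it was 429 without V3 replicate 3, 434 without V3 replicate 2, and 392 when V3 and V2 were fitted without the other groups.

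Most genes called at any treatment were called at only 1. This did not hold for the genes called at R24 or at HS6h, most of which were also called at another treatment. Of 7786 genes tested at all 3 treatments, 3968 were called at 1 or more and 2587 of these at exactly 1, with 1520 at T48 alone, 163 at R24 alone and 904 at HS6h alone. Genes called at all 3 in the same direction numbered 111 (1.43%), of which 70 were higher in V3 (0.899%) and 41 lower (0.527%), and another 95 were called at all 3 with directions that differed. Between T48 and HS6h, 838 genes were called in the same direction and 311 in opposite directions. The 838 were 29.8% of the 2816 genes called at T48 and 39.0% of the 2148 called at HS6h that were tested at both treatments. Between T48 and R24, 214 were called the same way (7.47% of 2864 called at T48 and 34.7% of 616 called at R24, likewise) and 143 the opposite way. Between R24 and HS6h, 215 were called the same way (34.3% of 626 called at R24 and 9.91% of 2169 called at HS6h) and 86 the opposite way. Across genes, Pearson's r of the log2 differences was 0.267 for T48 and HS6h, 0.199 for T48 and R24, and 0.230 for R24 and HS6h. Spearman's rho was 0.242, 0.0857 and 0.0900 for the same pairs, and genes are not independent replicates.

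**Figure D1:**
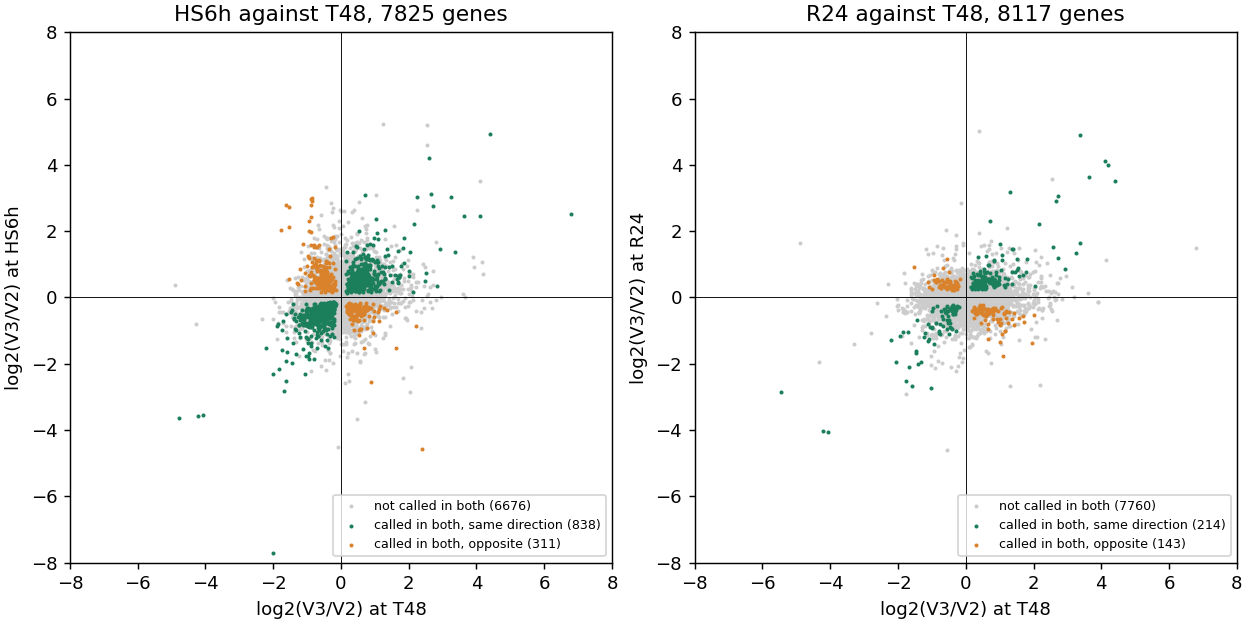
Log2 of V3 over V2 at HS6h (left) or R24 (right), on the y axes, against the same at T48, on the x axes; each point is a gene, green where it was called at both treatments in the same direction and orange where directions differed. The left panel holds 838 green and 311 orange points and the right panel 214 and 143.

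The treatments were then compared directly, by testing whether the V3 over V2 difference itself changed. It differed between HS6h and T48 for 1792 of 9231 genes (19.4%), with a higher log2 ratio at HS6h for 855 (9.26%) and a lower one for 937 (10.2%). Between R24 and T48 it differed for 1822 genes (19.7%), higher at R24 for 928 (10.1%) and lower for 894 (9.68%). Between HS6h and R24 it differed for 1404 genes (15.2%), higher at HS6h for 669 (7.25%) and lower for 735 (7.96%). The fit shared its estimate of spread over all treatments, although the median spread was 8.44 at R24 against 2.55 at T48 and 2.88 at HS6h. Changes that involve R24 may therefore be called too readily and those between HS6h and T48 too seldom. The genes of largest change among those with at least 5 CPM in V3 or V2 at 1 of the treatments compared are given with their values in the closing section.

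A small set of genes separated the lines whatever the treatment. Of the 111 genes called in the same direction throughout, 98 had no overlap of V3 and V2 libraries in any treatment. These 98 also had at least 5 CPM in V3 or V2 in each treatment. Among all genes tested, the libraries of the lines did not overlap for 45.5% at T48, 23.7% at R24 and 38.8% at HS6h. Lack of overlap at every treatment was counted only among called genes, so the 98 add no separate evidence. The IDs of the deposited table could not be paired with gene names, so the genes below are given by ID and without a function.

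The largest lasting difference higher in V3 was that of g12034. At T48 it had 53.3, 64.3 and 60.0 CPM in V3 libraries, against 2.71, 2.90 and 2.69 CPM in V2 libraries (log2 4.39, SE 0.22, adjusted p = 2.66e-37). At R24 it had 17.1, 11.8 and 16.0 CPM in V3, against 0.278, 1.73 and 2.08 CPM in V2 (log2 3.52, SE 0.41, adjusted p = 9.69e-06). At HS6h it had 55.7, 62.6 and 50.2 CPM in V3, against 2.37, 2.06 and 1.20 CPM in V2 (log2 4.92, SE 0.25, adjusted p = 3.02e-32). Every V3 library thus lay above every V2 library of its treatment. The level was not particular to V3: at T48 g12034 averaged 23.9 ± 1.55 CPM in KO and 1.85 ± 1.12 CPM in WT (SD, n = 3 each). Over all treatments its group means ran from 8.56 to 90.7 CPM in KO, V3, V4, V5-6 and the Drosophila lines and from 1.07 to 3.56 CPM in V2, V1 and WT.

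The next gene number, g12035, was also higher in V3 at each treatment. At T48 it had 45.8, 57.1 and 49.3 CPM in V3, against 4.68, 10.6 and 7.45 CPM in V2 (log2 2.72, SE 0.21, adjusted p = 2.70e-22). It averaged 30.5 ± 2.41 CPM in V3 and 3.74 ± 1.15 CPM in V2 at R24 (log2 3.05, adjusted p = 2.50e-12), and 11.3 ± 1.91 CPM in V3 and 1.67 ± 0.119 CPM in V2 at HS6h (log2 2.76, adjusted p = 1.79e-07). Its libraries did not overlap between the lines at any treatment.

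The largest lasting differences lower in V3 were those of g5213 and g5214, which are also neighbouring numbers. At T48 g5213 had 8.12, 6.13 and 8.94 CPM in V3, against 133, 128 and 120 CPM in V2 (log2 -4.07, SE 0.21, adjusted p = 3.33e-36). At R24 it had 8.48, 7.53 and 6.79 CPM in V3, against 125, 130 and 116 CPM in V2 (log2 -4.05, SE 0.15, adjusted p = 1.32e-17), and at HS6h 12.8, 15.3 and 15.7 CPM in V3, against 179, 161 and 174 CPM in V2 (log2 -3.54, SE 0.17, adjusted p = 3.10e-33). Here the V2 line was the one that stood apart, since no other group of the series averaged more than 18.7 CPM (V5-6 at HS6h). WT averaged 2.40 ± 0.875 CPM at T48, 3.25 ± 0.861 CPM at R24 and 3.86 ± 0.460 CPM at HS6h. The gene g5214 averaged 2.40 ± 0.529 CPM in V3 and 44.4 ± 1.15 CPM in V2 at T48 (log2 -4.21, adjusted p = 5.73e-21), 2.16 ± 0.767 CPM in V3 and 34.5 ± 2.06 CPM in V2 at R24 (log2 -4.03, adjusted p = 2.97e-11), and 5.36 ± 2.66 CPM in V3 and 66.0 ± 3.46 CPM in V2 at HS6h (log2 -3.59, adjusted p = 9.44e-19). For g12034, g12035, g5213 and g5214 the difference between lines did not pass the test of a change between any 2 treatments (adjusted p from 0.0585 to 0.984).

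**Figure D2:**
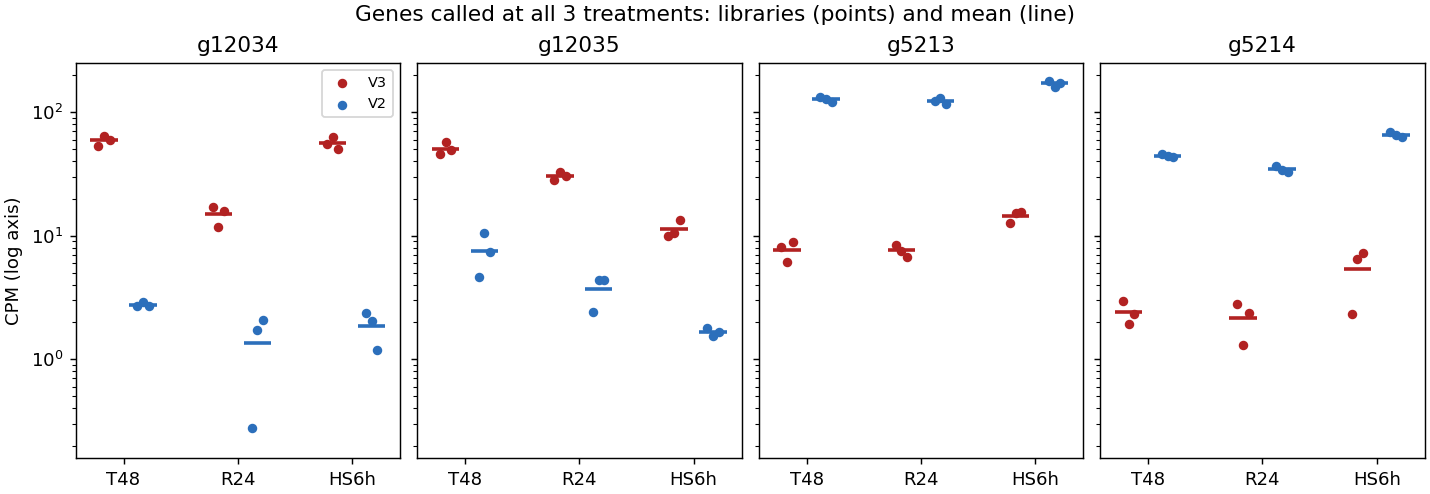
CPM (log axis) of the 4 genes with the largest difference between the lines called at all 3 treatments; points are libraries, bars are means of 3, with V3 left of V2 at each treatment. The V3 points lie above V2 for g12034 and g12035 and below V2 for g5213 and g5214, with no overlap.

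Other genes were chosen for their difference at a single treatment. The gene g3617 had 26.7, 34.3 and 33.5 CPM in V3, against 2.22, 0.966 and 1.86 CPM in V2 at T48 (log2 4.18, SE 0.34, adjusted p = 6.48e-21), and 6.73, 10.1 and 11.4 CPM in V3, against 0.556, 0.930 and 0.245 CPM in V2 at R24 (log2 4.01, SE 0.42, adjusted p = 1.09e-07). At HS6h the libraries overlapped, with 6.96, 8.30 and 4.31 CPM in V3 and 2.37, 4.89 and 4.55 CPM in V2 (log2 0.70, SE 0.38, adjusted p = 0.172). The difference at HS6h was smaller than at T48 (log2 change -3.51, adjusted p = 7.44e-07). WT averaged 0.546 ± 0.536 CPM and KO 14.3 ± 1.94 CPM of g3617 at T48.

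At R24 the largest difference higher in V3 was that of g4156, with 8.94, 4.93 and 5.03 CPM in V3, against 0.0927, 0.797 and 0.245 CPM in V2 (log2 4.10, SE 0.68, adjusted p = 0.000609). V2 was the lower line at the other treatments too. At T48 there were 45 counts over the V3 libraries and 2 over the V2 libraries, a ratio of V3 to V2 of 20.6 (exact Poisson 95% interval 5.39 to 175), and at HS6h it averaged 4.85 ± 0.851 CPM in V3 and 0.842 ± 0.741 CPM in V2 (log2 2.45, adjusted p = 0.00164). Intervals and floors cover counting error only.

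At T48 the largest differences lower in V3 were those of g15905 and g15904, again neighbouring numbers and nearly silent outside the V2 line. The gene g15905 had 3 counts over the V3 libraries and 84 over the V2 libraries, which had 7.88, 6.28 and 5.38 CPM, a ratio of V2 to V3 of 30.5 (10.1 to 151; adjusted p = 3.38e-06). No other group exceeded 0.341 CPM at T48. At HS6h it averaged 0.570 ± 0.561 CPM in V3 and 7.48 ± 2.32 CPM in V2 (log2 -3.62, adjusted p = 7.67e-05). The gene g15904 had 4 counts over the V3 libraries and 82 over the V2 libraries at T48, with 0.198, 0 and 0.865 CPM in V3, against 4.92, 9.66 and 4.55 CPM in V2 (log2 -4.33, adjusted p = 1.81e-05), a call that DESeq2 (adjusted p = 0.424) and the sum over transcripts (adjusted p = 0.0553) did not make.

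At HS6h, besides g12034, the largest difference higher in V3 was that of g9431. It had 9.98, 11.0 and 8.43 CPM in V3, against 2.37, 0.514 and 0 CPM in V2 (log2 3.42, SE 0.64, adjusted p = 1.02e-05, and 5.15 on the log2 scale without V2 replicate 1), while at R24 it averaged 6.18 ± 2.14 CPM in V3 and 5.19 ± 1.29 CPM in V2 (adjusted p = 0.754). The largest differences lower in V3 were those of g5142 and g2864. No read of g5142 was counted in the 3 V3 libraries at HS6h, against 5.05, 7.71 and 4.55 CPM in V2, so that it was at least 26.7-fold lower in V3 (floor of 3 counts over the group; adjusted p = 2.02e-07). The low level was not particular to V3, with HS6h means of 0 CPM in the HSF1b line, 0.0733 in V1 and 0.0794 in V4. The remaining groups ran from 0.989 CPM in V5-6 to 4.20 CPM in KO. At T48 it was lower in V3 as well, with 1.98, 1.23 and 3.75 CPM in V3, against 7.39, 6.28 and 12.6 CPM in V2 (log2 -2.02, adjusted p = 6.43e-05). It was the single gene of any treatment with 5 CPM or more in 1 line and no count in the other. The gene g2864 had 0.928, 0.897 and 1.18 CPM in V3, against 11.3, 13.6 and 14.4 CPM in V2 at HS6h (log2 -3.66, SE 0.39, adjusted p = 2.28e-13), where WT averaged 19.7 CPM and KO 28.9 CPM, and it averaged 10.4 ± 4.13 CPM in V3 and 7.61 ± 1.19 CPM in V2 at T48 (adjusted p = 0.201). Among the other groups at HS6h, V1 (2.92 CPM) and the HSF1a (3.42) and HSF1b (4.32) lines were also low. V4 averaged 11.4 CPM and V5-6 17.0 CPM.

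Transcripts that are nearly absent without HSF1 were present in both lines. The IDs g238, g241, g240 and g6912 were named earlier as nearly lost in KO, where none averaged more than 0.870 CPM at T48 or HS6h. At HS6h g238 had 3256, 3277 and 3187 CPM in V3, against 2592, 2610.45 and 2646 CPM in V2 (log2 0.32, SE 0.14, adjusted p = 0.0964). The same difference passed the test without robust moderation of the spread (adjusted p = 0.00349) and when V3 and V2 were fitted alone (adjusted p = 3.73e-09). At that treatment g241 averaged 1572 ± 6.24 CPM in V3 and 1347 ± 60.8 CPM in V2 (log2 0.23, adjusted p = 0.238), passing without robust moderation (0.0434) and with V3 and V2 alone (3.24e-05), and g240 averaged 6672 ± 172 CPM in V3 and 6142 ± 81.6 CPM in V2 (log2 0.13, adjusted p = 0.559), passing with V3 and V2 alone (0.0120). WT averaged 2556 ± 167, 1228 ± 116 and 5722 ± 210 CPM of g238, g241 and g240 at HS6h. These 3 IDs had V3 libraries above V2 libraries without overlap at HS6h, which 38.8% of all genes tested also had in 1 direction or the other.

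In trehalose the same transcripts were low, and g238 and g240 were higher in V3. At T48 g238 had 14.7, 16.3 and 12.7 CPM in V3, against 8.62, 7.00 and 8.07 CPM in V2 (log2 0.87, SE 0.29, adjusted p = 0.0127). This call was lost without V2 replicate 2 (0.0596), without V3 replicate 2 (0.0687) and with the sum over transcripts (0.0584). The ID g240 had 27.7, 36.4 and 24.8 CPM in V3, against 13.0, 12.1 and 19.2 CPM in V2 (log2 0.99, SE 0.21, adjusted p = 6.31e-05), and g241 averaged 5.01 ± 0.880 CPM in V3 and 2.14 ± 0.184 CPM in V2 (log2 1.21, adjusted p = 0.0671), passing with DESeq2 (0.0417) and with V3 and V2 alone (0.0223). WT averaged 4.58, 11.2 and 0.984 CPM of g238, g240 and g241 at T48. At R24 none of the 4 IDs passed the test (adjusted p from 0.569 to 0.731).

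The fourth ID, g6912, changed sides between treatments. At T48 it had 198, 208 and 183 CPM in V3, against 263, 253 and 273 CPM in V2 (log2 -0.43, SE 0.09, adjusted p = 1.39e-05). At HS6h it had 128, 136 and 135 CPM in V3, against 79.5, 73.8 and 85.9 CPM in V2 (log2 0.74, SE 0.11, adjusted p = 4.21e-08). The libraries of the lines did not overlap at either treatment, and WT lay below both lines at both, with 97.4 ± 5.48 CPM at T48 and 32.4 ± 3.19 CPM at HS6h.

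**Figure D3:**
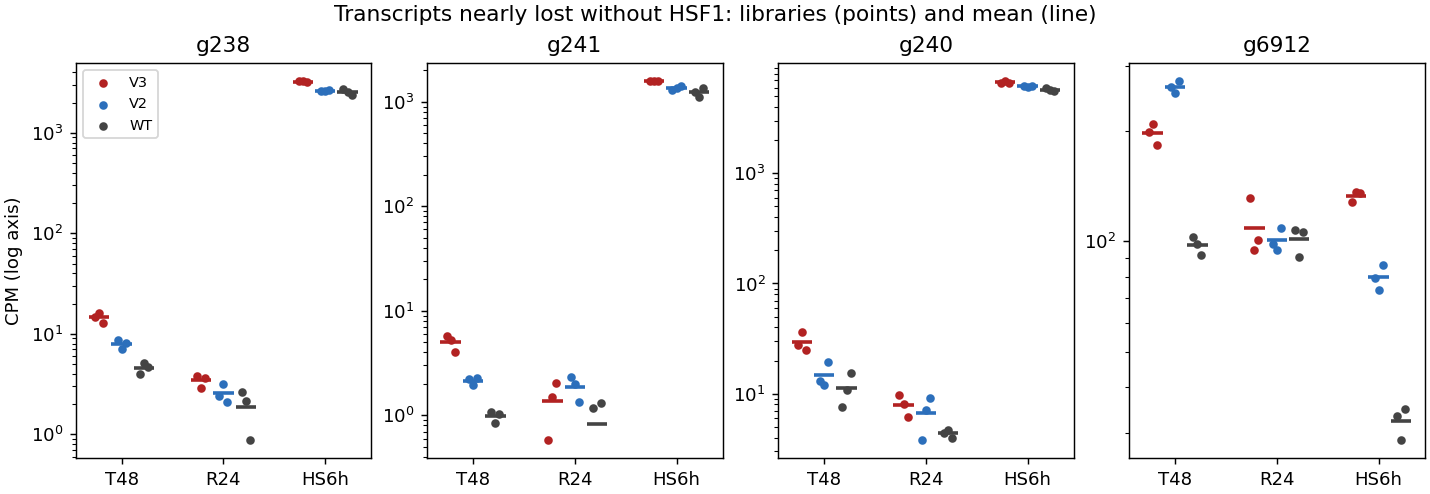
CPM (log axis, each panel its own range) of 4 transcripts nearly absent in KO; points are libraries, bars are means of 3, in the order V3, V2 and WT at each treatment, and a WT library of g241 at R24 with no count is not drawn. At T48 V3 lies above V2 for g238, g241 and g240 and below it for g6912.

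The same question was asked of gene lists chosen in WT and KO libraries alone. The first list held 411 genes that KO had at 0.5 times the WT level or less at T48. Among them 122 were higher and 57 lower in V3 than in V2 at T48, which is 29.7% and 13.9% of them, against 17.3% and 17.7% of all genes tested. Their median log2 difference was 0.31, against 0.01 over all genes. Relative to WT the mean log2 level of this list was -0.09 ± 0.02 in V3, -0.36 ± 0.02 in V2 and -1.61 ± 0.02 in KO (SD, n = 3 each, CPM with a pseudocount of 0.5). At the treatment where a list was chosen, here and below, the gap between KO and WT is set by that choice. The WT baseline of the V3 and V2 levels comes from the same libraries. At R24 the same list showed 29 genes higher and 33 lower of 400 (7.25% and 8.25%, against 3.53% and 3.77% of all genes, and 19 higher without V3 replicate 1 or without V3 replicate 2), a median of -0.00 and list levels of -0.01 ± 0.02 in V3 and -0.00 ± 0.01 in V2. At HS6h 96 of its 360 tested members were higher and 41 lower in V3 (26.7% and 11.4%, against 13.7% and 12.9% of all genes), and its level relative to WT was 0.41 ± 0.02 in V3, 0.13 ± 0.02 in V2 and -0.87 ± 0.03 in KO.

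The list chosen the same way at HS6h held 353 genes, and 127 were higher and 28 lower in V3 at HS6h (36.0% and 7.93%, against 13.7% and 12.9% of all genes), with a median of 0.37. Their mean log2 level relative to WT was 0.13 ± 0.02 in V3, -0.25 ± 0.02 in V2 and -1.85 ± 0.04 in KO. At T48, 65 of 299 measured members were higher and 59 lower in V3, with a median of 0.10. These were 21.7% and 19.7% of them, against 17.3% and 17.7% of all genes. Of 211 genes at least 2-fold higher in KO at HS6h, 22 were higher and 64 lower in V3 at HS6h (10.4% and 30.3%), with a median of -0.36, and their level relative to WT was 0.69 ± 0.01 in V3, 0.96 ± 0.05 in V2 and 1.76 ± 0.02 in KO. Both of these lists lay nearer to the WT level in V3 than in V2 at HS6h, whereas the list chosen as lower in KO at T48 lay nearer to it in V2 at that treatment. At T48 the genes lower in KO at HS6h had levels of 0.17 ± 0.02 in V3 and 0.08 ± 0.01 in V2, and those higher in KO at HS6h had 0.58 ± 0.04 in V3 and 0.38 ± 0.02 in V2, so V2 was the nearer line for both. Of 162 genes at least 2-fold higher in KO at T48, 31 were higher and 41 lower in V3 at T48. These were 19.1% and 25.3% of them, against 17.3% and 17.7% of all genes. Their list had a median of -0.09, which turned to 0.04 without the filter on low counts and to 0.01 without V2 replicate 3. Its level relative to WT was 0.92 ± 0.04 in V3 and 0.87 ± 0.02 in V2 at T48. At HS6h it was 0.75 ± 0.05 in V3 and 0.83 ± 0.05 in V2. So V2 was the nearer line at T48 and V3 at HS6h, with overlapping libraries at both.

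Lists were also chosen for their response to treatment in WT. Of 312 genes at least 4-fold higher in WT at HS6h than at T48, 293 were tested at HS6h, where 30 were higher and 47 lower in V3 (10.2% and 16.0%, against 13.7% and 12.9% of all genes) with a median of -0.18. Without V2 replicate 1 the count higher was 19. Of 354 genes at least 4-fold higher in WT at R24 than at T48, 17 were higher and 21 lower in V3 at R24 (4.86% and 6.00% of 350 tested, against 3.53% and 3.77% of all genes). The count lower was 11 without V2 replicate 2 and 12 without V3 replicate 3. Of 217 genes at least 4-fold lower in WT at R24 than at T48, 57 were higher and 45 lower at T48 (29.1% and 23.0% of 196 tested, against 17.3% and 17.7% of all genes). At R24 17 were higher and 14 lower (10.4% and 8.59% of 163 tested, against 3.53% and 3.77%), with 11 higher without V3 replicate 1. At HS6h 44 were higher and 29 lower (28.9% and 19.1% of 152 tested, against 13.7% and 12.9%), so this list was called more often than all genes in both directions. None of these lists was tested as a whole or matched to all genes by level, and abundant genes were called more often.

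**Figure D4:**
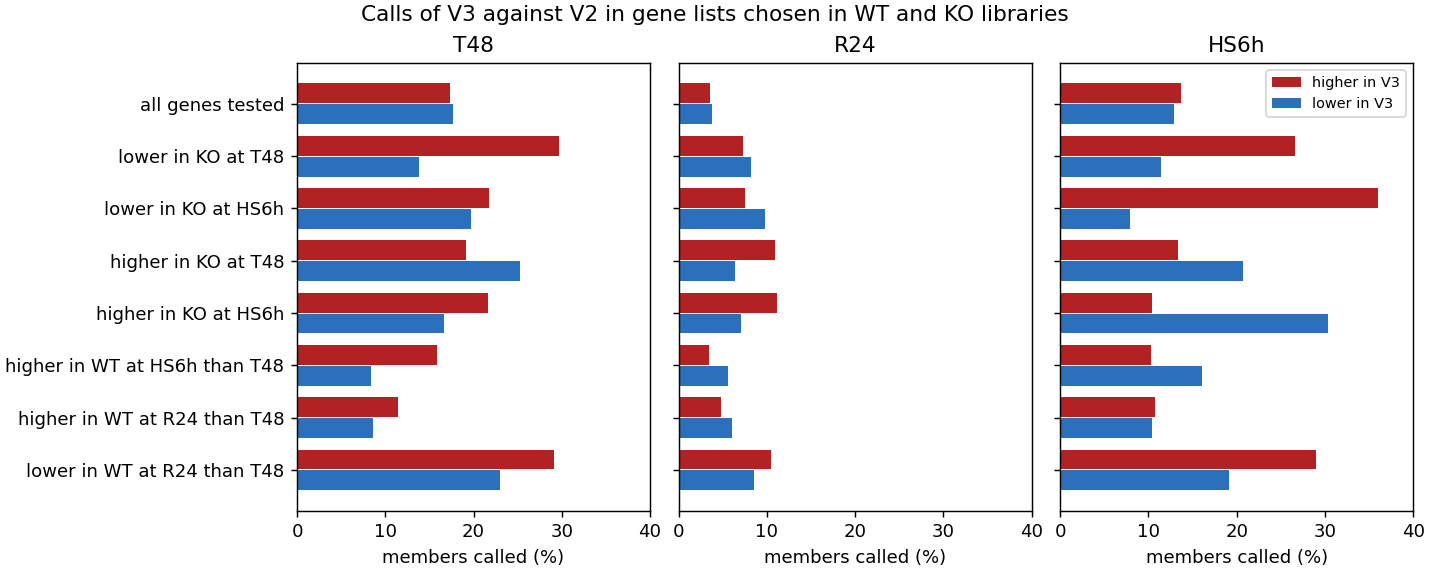
Percent of the tested members of each list called higher (red, upper bar) or lower (blue, lower bar) in V3 than in V2 at T48, R24 and HS6h, with all genes tested on top. Members lower in KO were called higher in V3 more often than lower at T48 and HS6h, with 36.0% and 7.93% for the HS6h list at HS6h.

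Which of the lines stood away from the rest of the series was described for the genes called at least 2-fold apart, a measure chosen after the design was fixed. At T48 the V2 mean lay farther from the median of the other 7 groups than the V3 mean for 401 of 500 such genes (80.2%, or 75.8% when V1, V4 and V5-6 alone were the other groups), against 64.0% of all genes tested. The median distance in log2 was 0.36 for V3 and 1.12 for V2. At R24 it was 70 of 140 genes (50%, against 55.0% of all genes), made up of 35 of the 55 higher in V3 (63.6%) and 35 of the 85 lower (41.2%). At HS6h it was 213 of 394 (54.1%, against 54.4% of all genes).

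Genes that differed between the lines often had neighbouring numbers. For genes called higher in V3, the next number was also called higher in 31.9% at T48, 23.8% at R24 and 29.4% at HS6h, against 17.3%, 3.53% and 13.7% of all genes. For genes called lower these shares were 32.4%, 20.4% and 23.1%, against 17.7%, 3.77% and 12.9%. The table gives no coordinates and the order of the numbers along the genome is not stated. A read can also be counted in each of several overlapping IDs. Deviations from the group means correlated above 0.5 over the 72 libraries for 217 of 6992 pairs of neighbours, and for g12479 to g12482 the median of 3 pairs was 1.00. Without such pairs the next number was also higher in 29.4% at T48, 17.2% at R24 and 25.7% at HS6h, and also lower in 28.5%, 16.5% and 19.9%.

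A pair of long runs, picked after their values were seen and given with no test, reversed between treatments. The 35 IDs from g16173 to g16208 include some of the most abundant transcripts of these cells. At T48 24 of them were lower and 5 higher in V3, with a median log2 of -0.37. At R24 12 were higher and none lower (median 0.28), and the 12 became 19 without V3 replicate 3. At HS6h 33 of 34 tested were higher (median 0.90). Their summed level at T48 was 144475 ± 4573 CPM in V3 and 169471 ± 5904 CPM in V2, with 106361 ± 1900 CPM in KO and 110340 ± 3615 CPM in WT. At HS6h it was 183566 ± 8966 CPM in V3 and 130777 ± 6118 CPM in V2, with 72401 ± 1707 CPM in KO and 138548 ± 3158 CPM in WT. At R24 the sums overlapped, with 95952, 81660 and 71672 CPM in V3 and 64817, 85635 and 71328 CPM in V2. Of the 33 pairs of neighbours in this run, 18 varied together within groups at a correlation above 0.5, so its genes are not separate measurements. A read counted in several IDs would enter these sums, and those of the runs given below, more than once.

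The run from g17480 to g17492 behaved alike at a lower level. All 13 of its genes were lower in V3 at T48 (median log2 -0.87), 9 were higher at R24 (0.49) and 12 were higher at HS6h (2.12). Its sum was 2534, 2690 and 2725 CPM in V3, against 4699, 4787 and 4570.17 CPM in V2 at T48, and 1662, 1666 and 1547 CPM in V3, against 571, 562 and 583 CPM in V2 at HS6h. The lines were therefore in opposite order without overlap. At T48 KO had 504 ± 48.5 CPM and WT 956 ± 80.2 CPM. Of its 12 pairs of neighbours, 3 varied together above 0.5. The count of 9 at R24 fell to 4 without V3 replicate 1 or with the sum over transcripts, and to 5 without V2 replicate 3.

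**Figure D5:**
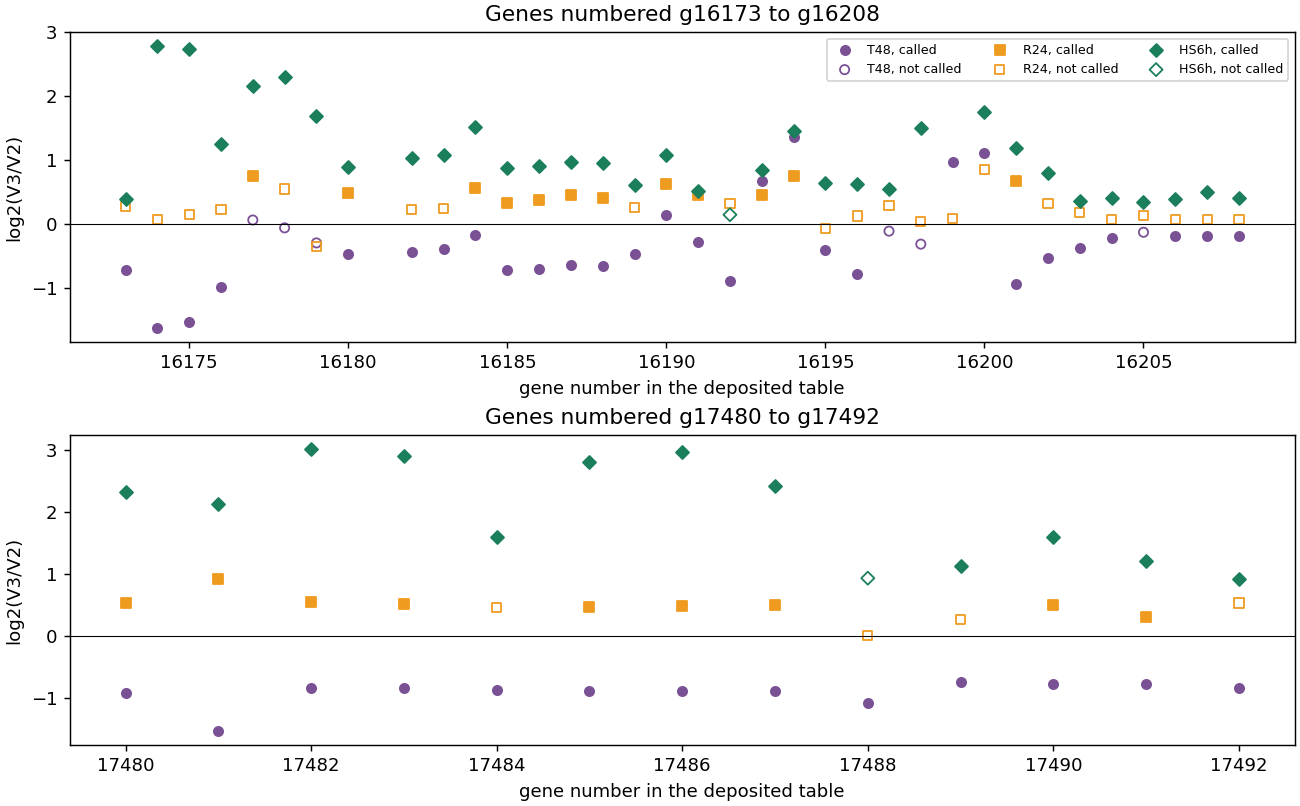
Log2 of V3 over V2 (y axis) for the genes numbered g16173 to g16208 (top) and g17480 to g17492 (bottom), by gene number (x axis), at T48 (circles), R24 (squares) and HS6h (diamonds), filled where called. At T48 24 of 35 and 13 of 13 genes were lower in V3, and at HS6h 33 of 34 and 12 of 13 were higher.

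Since the isoforms are themselves splice forms, the transcripts of each gene were also compared, as the ratio of a transcript's count to that of the transcript used for its gene. Transcripts of a gene share reads, so genes are counted beside ratios. At T48, 1766 of 16659 ratios differed between V3 and V2 (10.6%), in 350 genes. At R24 it was 300 of 18138 (1.65%) in 88 genes, and at HS6h 1103 of 15787 (6.99%) in 224 genes. At R24 the count was 32 when V3 and V2 were fitted alone and lay between 175 and 424 with 1 library left out, the lowest without V3 replicate 1 and 181 without V3 replicate 3. Of 15081 ratios tested at all 3 treatments, 55 were called in the same direction at all 3, in 8 genes. They include g12482, taken up below, and g16185, g16190 and g16193 of the run above, so they are not 8 separate cases.

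The clearest of the named ratios was that of g3560.t2 at HS6h. It came to 27.5%, 24.8% and 28.1% of the gene transcript in V3, against 67.3%, 64.2% and 62.8% in V2 (log2 -1.27, SE 0.08, limma adjusted p = 1.16e-08). At T48 it was 10.5% ± 0.755 in V3 and 16.6% ± 0.467 in V2 (log2 -0.66, adjusted p = 0.000400), and at R24 16.7% ± 1.59 in V3 and 18.3% ± 2.45 in V2 (adjusted p = 0.812). The HS6h counts of g3560.t2 were 455, 436 and 601 in V3 and 474, 565 and 633 in V2. Those of the gene transcript were 1657, 1758 and 2137 in V3 and 704, 880 and 1008 in V2 (log2 0.83, edgeR adjusted p = 1.12e-18). The lower ratio in V3 thus went with a higher gene transcript. The transcript g854.t1 changed sides, with 22.3% ± 4.21 in V3 and 52.9% ± 5.32 in V2 at T48 (log2 -1.25, adjusted p = 0.00102), and 33.2% ± 7.55 in V3 and 13.9% ± 6.97 in V2 at HS6h (log2 1.32, adjusted p = 0.00850). At T48 g15788.t2 reached 4.96%, 7.90% and 3.84% of its gene transcript in V3, against 0.936%, 0.391% and 0.763% in V2 (log2 2.91, SE 0.30, adjusted p = 5.33e-07), and at R24 3.07% ± 0.384 in V3 and 3.09% ± 0.387 in V2. The gene transcripts also differed at T48, with log2 -0.89 for g15788 (edgeR adjusted p = 1.82e-18) and -0.30 for g854 (0.0313).

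A ratio can also reflect a second gene that overlaps the transcript. The ratio of g12482.t40 was higher in V3 at R24, with 2.95% ± 0.663 in V3 and 0.761% ± 0.142 in V2 (log2 1.94, SE 0.20, adjusted p = 9.83e-05, or 0.0817 with V3 and V2 alone), and at HS6h, with 3.69% ± 0.587 in V3 and 0.582% ± 0.133 in V2 (log2 2.62, adjusted p = 3.82e-05). Its counts at HS6h were 139, 108 and 148 in V3 and 10, 11 and 17 in V2, and the next gene number, g12483, chosen here after its values were seen, had 139, 108 and 147 in V3 and 10, 11 and 17 in V2. Reads of the 2 cannot be told apart. The gene g12483 averaged 863 ± 31.5 CPM in V3 and 518 ± 19.5 CPM in V2 at T48 (log2 0.72, adjusted p = 1.34e-20), 62.4 ± 15.8 CPM in V3 and 12.6 ± 2.93 CPM in V2 at R24 (log2 2.30, adjusted p = 1.23e-07), and 28.4 ± 4.03 CPM in V3 and 3.29 ± 0.679 CPM in V2 at HS6h (log2 3.10, adjusted p = 5.75e-12). Counts within 10% of those of another ID, among the 10 numbers on each side and in every V3 and V2 library of the treatment, were found for 99 of the 1766 ratios at T48 (5.61%), 6 of the 300 at R24 and 113 of the 1103 at HS6h (10.2%).

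The other ratios named by the rule were higher in V3 for g10284.t6 at T48 (log2 2.22, adjusted p = 0.00152, or 0.132 with V3 and V2 alone), g7141.t7 at R24 (1.72, 0.0151), g7976.t67 at HS6h (2.90, 0.0115) and g12482.t72 at HS6h (2.63, 4.81e-06). They were lower for g9948.t3 at T48 (-1.22, 0.0416), g11881.t1 at R24 (-1.33, 0.0330), g3609.t1 at R24 (-0.997, 0.0330) and g3998.t3 at HS6h (-1.48, 0.0122). The gene transcript went the opposite way for g10284 (log2 -0.71, edgeR adjusted p = 0.00680), g9948 (1.06, 3.63e-10) and g11881 (0.99, 6.23e-09). It went the same way for g12482 at HS6h (0.46, 9.22e-10) and was not called for the rest. The HS6h counts of g12482.t72 were 134, 102 and 137 in V3 and 10, 9 and 17 in V2. These are close to those of g12482.t40 and g12483 given above, so g12482.t72 is not a separate case. The call of g9948.t3 was lost whichever of the 6 libraries was left out (adjusted p from 0.0600 to 0.141), and those of the other R24 ratios here and of g7976.t67 and g3998.t3 when some were. With V3 and V2 alone the adjusted p was 0.0972 for g7141.t7, 0.199 for g11881.t1, 0.223 for g3609.t1, 0.324 for g7976.t67 and 0.293 for g3998.t3. The log2 ratio of g7976.t67 was 1.52 without V2 replicate 1, and that of g3998.t3 was -0.85 without V3 replicate 3.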

How the data were processed

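PolyA RNA was measured in 72 libraries, 3 per group, and the V3 and V2 libraries at T48, R24 and HS6h were compared. The authors deposited raw counts of reads per transcript, made with FastQC 0.11.9, Trimmomatic 0.39, HISAT2 2.2.1 and HTSeq 2.0.9, per the submitters' processing notes. The genome build, annotation and strand setting are not given in the sources used here, and reads that fall on overlapping or antisense genes cannot be assigned to one of them. There are 65235 transcripts of 17156 genes in the table. A gene was taken as its transcript with the highest total over all libraries, and 5 rows that name no gene were set aside before scaling and testing, of which reads without a feature were 38.3% to 45.5% of counts plus such reads in the 18 libraries. None of the IDs matched a reference table of 17863 loci, so genes are named by ID and no sequence is given.

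Gene counts were tested with edgeR 4.0.16 in R 4.3.3: filterByExpr, TMM, and the quasi-likelihood test with robust moderation, with Benjamini-Hochberg adjusted p under 0.05. The SE given for genes is the absolute log2 difference over the square root of the F statistic of that test. It is thus derived from the test and is not a standard error estimated by the model. Each treatment had its own fit with all of its groups, of 27, 18 and 27 libraries at T48, R24 and HS6h, and changes of the V3 over V2 difference between treatments came from a fit of all 72. Transcript ratios, log2 of (count + 0.5) over (gene transcript count + 0.5), were tested with limma 3.58.1, where the transcript averaged 20 counts or more in V3 or V2 and the gene transcript 50 or more in both. Steps were tested on simulated data. For the ratios, transcript counts were redrawn by binomial sampling from the gene transcript, without further spread between libraries. That simulation therefore cannot show the error rate of the ratio test in these libraries. P-values rest on the spread between libraries of a group, estimated over all groups of a fit and moderated across genes, not on V3 and V2 alone. This spread may be technical because no label names separate cultures.

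The members, lists and tests were chosen with earlier results of these data known. The rule for named genes took 2 IDs higher and 2 lower per comparison, the largest log2 differences among called genes with no overlap of V3 and V2 libraries and a mean of 5 CPM or more in 1 group. For changes between treatments, overlap was not considered, and for transcript ratios neither overlap nor level. The 4 IDs earlier named as lost in KO were added. Alternatives were RLE size factors, DESeq2 1.42.0, no filter on low counts, the sum over transcripts, V3 and V2 libraries alone, no minimum fold for lists, and each library left out. Those without robust moderation and those on neighbouring numbers were added after seeing the data.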

Additional observations from a re-analysis of the deposited data

Results flagged for a closer look

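Of genes that averaged 5 CPM or more in V3 or V2 at 1 of the treatments compared, the following had the largest changes of the V3 over V2 difference, each past the edgeR test of that change (adjusted p under 0.05, 72 libraries). No cause was tested, and a log2 change that rests on a line with no or few counts depends on the prior count of the fit. SE values below are derived from the F statistic, as given under processing.

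From T48 to HS6h, the difference rose by 8.00 on the log2 scale for g12573 (SE 1.48, adjusted p = 9.92e-06). It had no count in V3 and 17 counts in V2 at T48, so that it was at least 6.18-fold lower in V3, and at HS6h it had 16.7, 16.6 and 17.1 CPM in V3, against 6.53, 2.83 and 2.15 CPM in V2. For g9776 the change was 6.46 (SE 1.99, adjusted p = 0.0122), with 4.64 ± 0.691 CPM in V3 and 14.0 ± 1.68 CPM in V2 at T48, and 9 counts in V3 and none in V2 at HS6h. Without V3 replicate 1 at HS6h its adjusted p was 0.112. For g684 the change was -7.05 (SE 0.92, adjusted p = 6.93e-10). It had 36.5, 36.6 and 34.6 CPM in V3, against 5.17, 8.45 and 6.62 CPM in V2 at T48, and at HS6h 1 count in V3 and 27 in V2, a ratio of V2 to V3 of 32.7 (exact Poisson 95% interval 5.40 to 1340.4). For g5142 it was -5.99 (adjusted p = 0.00344).

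From T48 to R24, the change was 3.26 for g6721 (SE 1.15, adjusted p = 0.0313) and 3.05 for g3812 (SE 1.01, adjusted p = 0.0213). Both were high at T48 in V2 alone among the 9 groups: g6721 averaged 0.976 ± 0.706 CPM in V3 and 11.1 ± 0.794 CPM in V2, and g3812 averaged 1.77 ± 0.968 CPM in V3 and 19.2 ± 2.37 CPM in V2. At R24 g6721 had 9 counts in each line, and g3812 had 12 counts in V3 and 14 in V2. The change was -4.06 for g7911 (SE 0.62, adjusted p = 9.95e-08), which had 8.12, 8.58 and 9.23 CPM in V3, against 0.492, 0.725 and 0.414 CPM in V2 at T48, and 4.86 ± 0.909 CPM in V3 and 5.30 ± 1.74 CPM in V2 at R24. It was -3.49 for g11009 (SE 1.19, adjusted p = 0.0252), with 13 counts in V3 and 2 in V2 at T48 and 2.54 ± 1.10 CPM in V3 and 5.54 ± 0.512 CPM in V2 at R24. The calls of g6721, g3812 and g11009 were each lost with the sum over transcripts and without single libraries (adjusted p from 0.0504 to 0.179), and that of g6721 also without the filter on low counts (0.0624). Without V2 replicate 2 at T48 the change of g11009 was -6.44.

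From R24 to HS6h, the change was 4.56 for g15830 (SE 1.52, adjusted p = 0.0276), with 1 count in V3 and 7 in V2 at R24, and 12.5, 16.4 and 10.2 CPM in V3, against 3.26, 3.34 and 1.68 CPM in V2 at HS6h. Without V2 replicate 1 at R24, which held most of the 7 counts, the change was 2.88 and its adjusted p 0.533. The call was also lost with DESeq2 (0.119), with the sum over transcripts (0.0934) and without some other libraries (0.0527 to 0.0832). It was 4.16 for g13117 (SE 1.21, adjusted p = 0.00965), with 178 counts in V3 and 211 in V2 at R24 and 20 counts in V3 and 1 in V2 at HS6h, and without V2 replicate 3 at HS6h its adjusted p was 0.0513 and without V2 replicate 1 at HS6h the change was 6.44. It was -7.75 for g5142 (adjusted p = 0.000879), which had 8 counts in each line at R24, and -3.72 for g2864 (SE 0.63, adjusted p = 2.87e-06).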

How the results depend on the processing

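Counts of genes called at T48 (2456 to 2603 with 1 library left out) and HS6h (1808 to 1894) and of genes whose difference changed between treatments stayed within 1.5 times of their values under every alternative run. At R24 the count moved to 392 with V3 and V2 libraries alone (180 higher, 212 lower) and to between 429 and 588 with 1 library left out (215 to 293 higher, 210 to 295 lower). Genes lower in V3 at all 3 treatments numbered 27 with the sum over transcripts and 27 to 42 with 1 library left out, the 27 without R24 V3 replicate 3. At R24 the log2 difference of g240 ran from -0.075 (without V2 replicate 1) to 0.55 and that of g6912 from -0.052 (without V3 replicate 1) to 0.18, neither called.

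Medians of lists moved when the minimum fold was dropped. For genes lower in KO at T48 they were 0.20 at T48 and 0.15 at HS6h, and for genes lower in KO at HS6h 0.28 at HS6h. For genes higher in KO at T48 the T48 median was -0.21, or 0.041 without the filter on low counts, and -0.14 to 0.0099 with 1 library left out. For genes higher in KO at HS6h it was -0.14 at T48. For genes higher in WT at HS6h it was -0.084 at T48 and -0.039 at HS6h, and for genes higher in WT at R24 -0.076 at T48, or 0.023 to 0.17 with 1 library left out. For genes lower in WT at R24 the T48 median was -0.058 to 0.084 with 1 library left out.

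Ratios of transcripts called at R24 numbered 32 with V3 and V2 alone and 175 to 424 with 1 library left out. The shares of next numbers moved but stayed above the share of all genes. Called higher, they were 25.7% without the filter, 27.8% with the sum and 27.1% to 30.7% with 1 library left out at T48, 17.2% without neighbours that vary together at R24, and 22.6%, 26.3% and 25.7% under the same changes at HS6h. Called lower, they were 24.0% without the filter, 27.3% with the sum, 28.5% without neighbours that vary together and 29.3% to 30.7% with 1 library left out at T48, 15.3% with the sum and 15.2% to 20.5% with 1 library left out at R24, and 17.0%, 18.8%, 19.9% and, with V3 and V2 alone, 27.3% at HS6h. The share of genes with V2 farther off at T48 was 75.8% with V1, V4 and V5-6 as the other groups. No cause of these moves was tested. No paired analysis was possible because the labels give no replicate numbers.

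With 3 libraries per line and treatment, differences at T48 below 5 CPM had a median SE of 0.56 on the log2 scale, against 0.06 at 500 CPM or more.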

Other observations

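Shorter runs of consecutive numbers, also picked after their values were seen and given with no test, did not all reverse. From g5878 to g5882, 5 of 5 genes were higher in V3 at R24, where the run was picked, 3 at T48 and 4 at HS6h, and none was lower. Some members were near the floor, with means at R24 from 0.454 to 875 CPM in V3 and from 0 to 608 CPM in V2. The R24 calls of g5878 and g5879 had edgeR adjusted p of 0.0383 and 0.0333. The summed level of the run was 2322 ± 108 CPM in V3 and 1658 ± 18.0 CPM in V2 at T48, 1438 ± 30.4 CPM in V3 and 928 ± 6.15 CPM in V2 at R24, and 3465 ± 49.2 CPM in V3 and 2246 ± 56.8 CPM in V2 at HS6h. In WT it was 2486 ± 55.2, 1357 ± 22.4 and 3466 ± 79.1 CPM at the same treatments, so V2 lay below both V3 and WT. From g1278 to g1281, all 4 genes were higher in V3 at T48 and all 4 lower at HS6h. Their sum was 1941 ± 82.9 CPM in V3 and 1361 ± 44.5 CPM in V2 at T48, and 591 ± 26.5 CPM in V3 and 734 ± 26.5 CPM in V2 at HS6h, with no overlap of libraries at either.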
